A study of Mus musculus with 2 samples.

Results

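The cytosolic HSP70 and HSP90 chaperone genes were described in leg muscle of the mouse, together with Hsf1, the transcription factor that drives their heat-induced expression. The 10 genes were taken by name from a list: Hspa8, Hspa1a, Hspa1b, Hspa1l and Hspa2 (HSP70), Hspa4 and Hsph1 (HSP110 type), Hsp90ab1 and Hsp90aa1 (HSP90), and Hsf1. All 10 were found among the 55450 annotated genes of the tables. Total RNA came from the gastrocnemius, a calf muscle made mostly of fast fibres, of 2 male B6CASTF1/J mice (adults of 8 to 10 months), hybrids of the B6 and Cast strains with no transgene or treatment in the labels. Replicate 1 is the mouse the labels number 2 and replicate 2 the mouse they number 4; both stand under 1 shared donor identifier. There is 1 group, so no condition was tested, and each difference given is between 2 libraries, without a replicate check and without a p-value. Values are not split by parental allele. Reads were assigned on the reference mm10, and whether both alleles were counted in full was not checked. Sequences given below are those of the reference.

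Estimated counts over all genes totalled 36791447 in replicate 1 and 37750905 in replicate 2. Levels are given in TPM, an abundance scaled by transcript length and by the library's total, and values after ± are SDs over the 2 animals. Of 21938 nuclear protein-coding genes, 9810 had 1 TPM or more in each animal, and the median of those was 8.13 TPM. The tissue label was checked against 5 muscle fibre markers, among them Ckm, Acta1 and Tnnt3, which summed to 69969 TPM in replicate 1 and 76233 TPM in replicate 2. Testis germ cell markers, checked because Hspa1l and Hspa2 are known from the testis, summed to 0.0100 TPM in replicate 1 and 0.0300 TPM in replicate 2, with 3 of 5 at 0 counts in both.

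Chaperones of the HSP70 family bind short exposed stretches of unfolded protein and release them through a cycle of ATP binding and hydrolysis. J-domain proteins deliver the client and start hydrolysis, and HSP110-type proteins and BAG proteins exchange the nucleotide. HSP90 proteins act later, as dimers, on clients such as kinases and steroid receptors, and in muscle on myosin with the co-chaperone Unc45b. Under protein-damaging stress HSF1 forms trimers and binds heat shock elements, inverted repeats of a short GAA unit, in the promoters of the inducible members.

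The constitutive genes Hspa8 and Hsp90ab1 held most of the RNA of these 10 genes in both muscles, and the stress-inducible pair Hspa1a and Hspa1b differed most between them. The 10 genes together held 1272 TPM in replicate 1 and 1010 TPM in replicate 2 (1141 ± 185, n = 2), which was 0.295% and 0.231% of nuclear protein-coding TPM. Hspa8 and Hsp90ab1 alone held 88.2% of the members' TPM in replicate 1 and 89.0% in replicate 2. At the other end Hspa1a and Hspa1b together held 13.0 TPM in replicate 1 and 3.17 TPM in replicate 2, or 4.01-fold more in replicate 1. By mean level the order was Hsp90ab1, Hspa8, Hsph1, Hspa4, Hsf1, Hsp90aa1, Hspa1l, Hspa1a, Hspa1b and Hspa2. In that order the ranges of the 2 animals overlapped between Hsp90ab1 and Hspa8, Hsph1 and Hspa4, Hsf1 and Hsp90aa1, Hspa1a and Hspa1b, and Hspa1b and Hspa2, so those neighbours were not separated beyond their spread. Within each animal Hsp90ab1 lay above Hspa8, Hsph1 above Hspa4 and Hspa1a above Hspa1b, while the other pairs changed order. In a second quantification of the same reads, Hspa8 led Hsp90ab1 in replicate 1 and Hspa4 led Hsph1 in replicate 2.

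**Figure D1:**
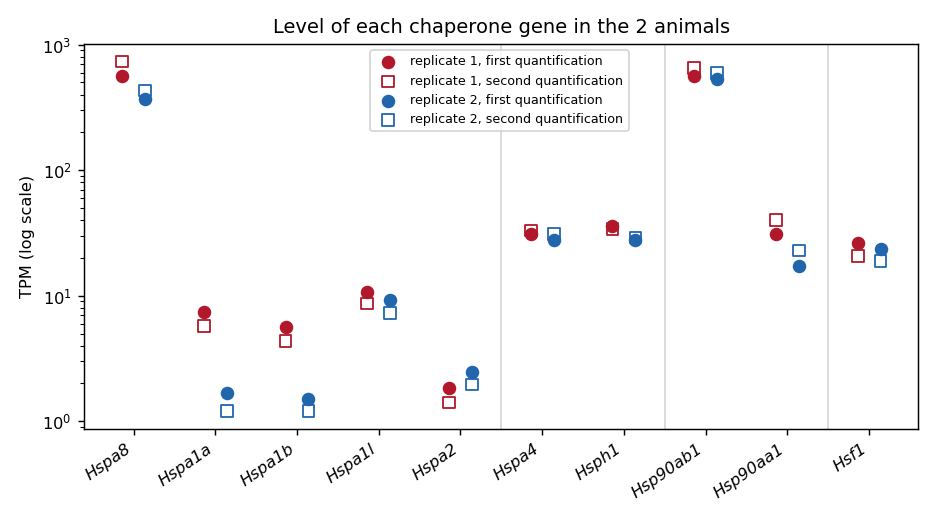
Level of each gene in TPM (vertical, log scale) in replicate 1 (red) and replicate 2 (blue), from the gene table (filled) and from a second quantification of the same reads (open squares). Vertical lines part the HSP70, HSP110-type, HSP90 and Hsf1 genes; Hspa8 and Hsp90ab1 lie near the top in both animals, and Hspa1a and Hspa1b show the widest gaps between animals, 7.37 against 1.67 TPM and 5.61 against 1.5 TPM.

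Differences between the animals are given as the log2 ratio of replicate 1 over replicate 2, from estimated counts scaled by library with a prior of 1 count. Each bracketed range is a 95% interval that covers counting error only. Genes were compared where the 2 counts averaged at least 100, which left 9513. Of these 3.40% were 1.5-fold or more apart (a log2 ratio of 0.58), 1.72% higher and 1.67% lower in replicate 1, and 0.925% were 2-fold or more apart. The median over all compared genes was 0.00, the median absolute ratio 0.12, and the range from the 5th to the 95th percentile -0.38 to 0.38. Among the 10 members 3 were past 1.5-fold, all higher in replicate 1, namely Hspa1a, Hspa1b and Hsp90aa1, and 2 of them were past 2-fold. The members' median was 0.26, and 9 of 10 lay above 0, of which Hsp90ab1 (-0.06) and Hsf1 (-0.02) lay below it when libraries were scaled by total counts. These ratios belong to 2 whole muscles, in which fewer cells of a type and less RNA per cell cannot be told apart.

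**Figure D2:**
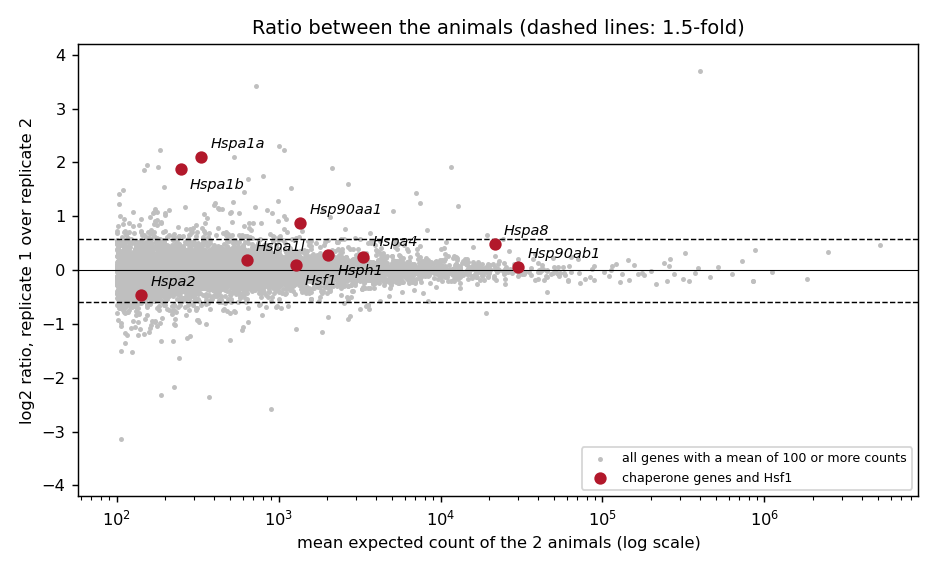
Log2 ratio of replicate 1 over replicate 2 (vertical) against the mean estimated count of both animals (horizontal, log scale), for genes averaging at least 100 counts (grey) and the 10 chaperone genes (red). Dashed lines mark 1.5-fold; Hspa1a, Hspa1b and Hsp90aa1 lie above the upper one, and 3 grey genes lie outside the axis range.

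Hspa8 encodes HSC70, the constitutive HSP70 of the cytosol, which also serves clathrin uncoating and chaperone-mediated autophagy. Hspa8 (ENSMUSG00000015656.17, mm10 chromosome 9, 40800984 to 40810087, plus strand) held 558.96 TPM in replicate 1 and 370.8 TPM in replicate 2. Its mean of 465 ± 133 TPM ranked 83rd among nuclear protein-coding genes. It supplied 95.6% of cytosolic HSP70 TPM in replicate 1 and 96.1% in replicate 2. From 24027 and 19175 counts the ratio was 0.48 [0.45, 0.50], 1.39-fold, beyond counting error but short of 1.5-fold. This side of the line depended on the scale: the ratio was 0.63 when libraries were scaled by the ERCC spike-ins, external control RNAs added to the libraries, and 0.59 in TPM.

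The Hspa8 value rests partly on how reads were shared with its processed pseudogenes, intronless copies of its mRNA. Only 56.5% of the 31-base words of Hspa8 transcripts occurred in no other gene. The copy Gm15459 (ENSMUSG00000100801.1, chromosome 5, 5781615 to 5783555, minus strand), singled out because it shares most words, has 91.9% of its words in Hspa8. It was given 6595 counts in replicate 1 and 5327 in replicate 2, a ratio of 0.46 [0.41, 0.51]. In total 13 pseudogenes took 7018 counts in replicate 1 and 5694 in replicate 2, which was 22.6% and 22.9% of the sum with Hspa8. With these counts added back, Hspa8 had 31045 counts in replicate 1 and 24869 in replicate 2, and the ratio was 0.47 [0.45, 0.49]. The level of Hspa8 thus depends on this assignment, while its ratio moved by 0.01.

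Hspa1a and Hspa1b encode the inducible HSP70 proteins, which are low in unstressed tissue and rise steeply after heat shock. They are intronless neighbours of 1 exon each on the minus strand of chromosome 17. Their coding sequences are 99.6% identical, differing at 8 of 1926 aligned bases. Gaps were not counted, and the coding sequence has 1926 bases in Hspa1a and 1929 in Hspa1b. Differences at aligned bases are written as the Hspa1a base, the position from the first base of the start codon and the Hspa1b base. They were A156G, T795G, A921G, A1380G, A1416G, A1629G, C1881G and G1884A. The promoter windows of both genes were taken from RefSeq (GRCm38.p6) as 250 bases before to 50 bases after the annotated start. They are shown because the pair moved together. Hspa1l, the divergent neighbour that did not, and Hsph1 follow for comparison. Capitals mark matches to the heat shock element letters GAANNTTC or TTCNNGAA, where N is any base; each reads the same on both strands, and both can share a GAA or TTC unit and so overlap.
Hspa1a, chr17:34972107-34972406 (minus strand): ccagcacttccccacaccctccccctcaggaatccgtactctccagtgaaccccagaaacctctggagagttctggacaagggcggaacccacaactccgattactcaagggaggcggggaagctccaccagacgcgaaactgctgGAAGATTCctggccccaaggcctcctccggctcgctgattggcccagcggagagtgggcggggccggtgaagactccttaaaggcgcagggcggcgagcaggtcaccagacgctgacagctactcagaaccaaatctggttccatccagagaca
Hspa1b, chr17:34959189-34959488 (minus strand): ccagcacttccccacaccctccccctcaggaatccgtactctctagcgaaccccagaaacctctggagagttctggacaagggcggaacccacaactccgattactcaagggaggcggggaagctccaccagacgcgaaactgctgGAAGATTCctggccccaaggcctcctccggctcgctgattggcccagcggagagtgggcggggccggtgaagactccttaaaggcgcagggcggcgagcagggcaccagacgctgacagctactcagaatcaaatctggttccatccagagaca
Hspa1l, chr17:34972453-34972752 (plus strand): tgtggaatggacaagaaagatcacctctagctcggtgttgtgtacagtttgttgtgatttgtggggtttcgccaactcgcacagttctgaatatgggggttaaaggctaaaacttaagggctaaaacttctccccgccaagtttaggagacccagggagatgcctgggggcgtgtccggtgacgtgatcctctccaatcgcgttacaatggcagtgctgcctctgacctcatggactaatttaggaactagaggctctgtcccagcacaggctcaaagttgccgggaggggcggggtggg
Hsph1, chr5:149636287-149636586 (minus strand): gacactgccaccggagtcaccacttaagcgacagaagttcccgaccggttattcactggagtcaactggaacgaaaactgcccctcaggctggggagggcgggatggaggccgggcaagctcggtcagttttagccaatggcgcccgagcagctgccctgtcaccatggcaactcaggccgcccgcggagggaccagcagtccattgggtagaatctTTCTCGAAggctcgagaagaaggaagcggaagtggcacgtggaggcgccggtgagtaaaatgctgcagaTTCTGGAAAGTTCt

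The Hspa1a and Hspa1b windows were identical at 296 of 300 bases. Counted from the 5′ end of the window, with the Hspa1a base first, they differed by C44T, T47C, T249G and C276T. Each held 1 heat shock element match beginning 104 bases before the start and 1 CCAAT match (either strand) beginning 67 bases before it. All 4 differences lie outside these matches. Over all 32851 RefSeq promoter windows of this length, 15.1% held a match to either heat shock element, 7.86% to GAANNTTC and 8.52% to TTCNNGAA, and 37.4% held CCAAT. In the Hsph1 window there were 2 TTCNNGAA matches, 1 of them overlapping a GAANNTTC match to give 3 alternating units in a row, an arrangement in 0.603% of windows. No match to these letters stands in the windows of Hspa1l, Hspa2 or Hspa4. RefSeq windows were matched for 6 of the 10 members; Hspa8, Hsp90aa1, Hsp90ab1 and Hsf1 had none.

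**Figure D3:**
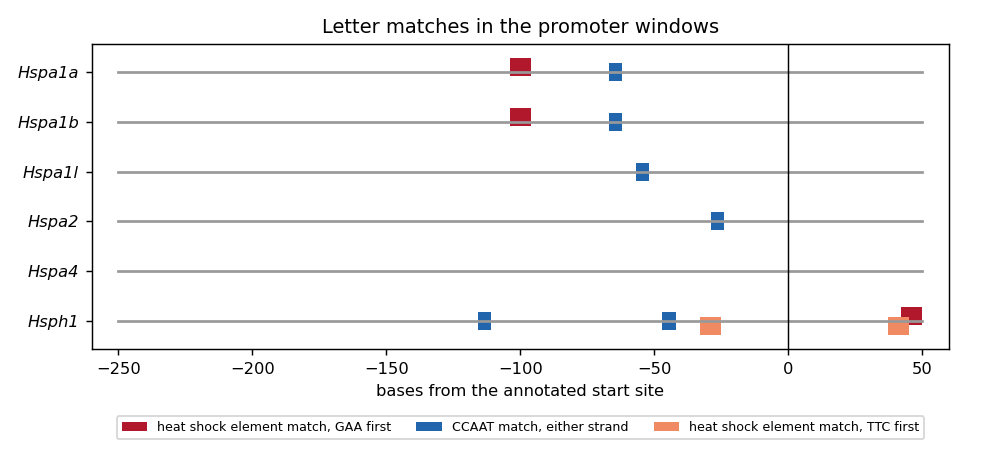
Position of heat shock element matches (red, GAANNTTC; orange, TTCNNGAA) and CCAAT matches on either strand (blue) in the promoter windows of 6 members, in bases from the annotated start (vertical line). Hspa1a and Hspa1b carry the same arrangement, Hsph1 holds overlapping heat shock element matches, and Hspa4 holds no match.

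Hspa1a (ENSMUSG00000091971.3, 34969190 to 34972156) held 7.37 TPM in replicate 1 and 1.67 TPM in replicate 2, from 532 and 137 counts. The ratio was 2.10 [1.83, 2.39], or 4.29-fold. Hspa1b (ENSMUSG00000090877.3, 34956436 to 34959238) held 5.61 TPM in replicate 1 and 1.5 TPM in replicate 2, from 382 and 115 counts. Its ratio was 1.87 [1.58, 2.20], or 3.66-fold. Both genes were thus several-fold higher in replicate 1 and both remained far below Hspa8, at 2.22% of cytosolic HSP70 TPM in replicate 1 and 0.822% in replicate 2.

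How the reads split between Hspa1a and Hspa1b is less certain than their sum. They shared 1873 of their 31-base words with each other, and 34.6% of the words of Hspa1a and 32.0% of those of Hspa1b were found in no other gene. In the coding part 9.19% of Hspa1a words and 11.9% of Hspa1b words were unique. In the 3′ untranslated parts, which differ, all Hspa1a words and 97.7% of Hspa1b words were. The posterior SD that the quantifier wrote was 15.32 counts for Hspa1a in replicate 1 and 10.23 in replicate 2, and 15.21 and 10.12 for Hspa1b. As a sum the pair had 914 counts in replicate 1 and 252 in replicate 2, a ratio of 2.00 [1.81, 2.22]. Gm20481, annotated as protein-coding on the opposite strand, overlaps Hspa1a and was listed at 0 counts in both animals.

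Hspa1l and Hspa2 are the HSP70 genes known for expression in male germ cells, Hspa2 being required for meiosis in the mouse testis. Hspa1l (ENSMUSG00000007033.4, chromosome 17, 34972703 to 34979285, plus strand) starts 546 bases from Hspa1a and is transcribed away from it. It held 10.8 TPM in replicate 1 and 9.3 TPM in replicate 2, more than either Hspa1a or Hspa1b in both animals. From 645 and 629 counts its ratio was 0.19 [0.03, 0.35], so it did not share the several-fold difference of its neighbour. Some 85.4% of its words were unique, and its antisense partner Gm10501 had 58 counts in replicate 1 and 53 in replicate 2. Hspa2 (ENSMUSG00000059970.7, chromosome 12, 76404176 to 76406938, plus strand) was the least abundant member by mean level. It held 1.83 TPM in replicate 1 and 2.48 TPM in replicate 2, where it lay above Hspa1a (1.67 TPM) and Hspa1b (1.5 TPM). From 112 and 172 counts its ratio was -0.46 [-0.82, -0.12], which made it the member lower in replicate 1. The Hspa2 words were 99.9% unique, and the germ cell markers above were at or near 0.

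The coding sequence of Hspa1a was 83.3% identical to that of Hspa1l, 79.9% to Hspa2 and 74.5% to Hspa8. The encoded proteins have 641 residues (Hspa1a), 642 (Hspa1b), 641 (Hspa1l), 633 (Hspa2) and 646 (Hspa8).

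Hspa4 (APG-2) and Hsph1 (HSP105) are HSP110-type proteins that exchange the nucleotide of HSP70 and, with J-domain proteins, help dissolve aggregates. Hspa4 (ENSMUSG00000020361.13, chromosome 11, 53259814 to 53300457, minus strand) held 31.07 TPM in replicate 1 and 27.66 TPM in replicate 2, with a ratio of 0.25 [0.18, 0.31] from 3439 and 3221 counts. Hsph1 (ENSMUSG00000029657.15, chromosome 5, 149614287 to 149636376, minus strand), the heat-inducible one, held 35.63 TPM in replicate 1 and 27.77 TPM in replicate 2. Its ratio was 0.27 [0.18, 0.36] from 2113 and 1943 counts. These genes had close levels and close ratios, both beyond counting error and both inside the 5th to 95th percentile range of all genes. All their words were unique, and their coding sequences were 64.9% identical.

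Hsp90ab1 encodes the constitutive HSP90 beta and Hsp90aa1 the more inducible HSP90 alpha. Hsp90ab1 (ENSMUSG00000023944.14, chromosome 17, 45567775 to 45573271, minus strand) held 563.46 TPM in replicate 1 and 528.22 TPM in replicate 2 (546 ± 24.9, rank 67 among nuclear protein-coding genes). From 29186 and 31157 counts its ratio was 0.06 [0.03, 0.08], 1.04-fold, and -0.06 under total-count scaling. Hsp90aa1 (ENSMUSG00000021270.13, chromosome 12, 110690605 to 110702728, minus strand) held 30.83 TPM in replicate 1 and 17.36 TPM in replicate 2. Its counts were 1704 and 1028, and the ratio 0.88 [0.77, 0.99], or 1.84-fold. The beta gene therefore supplied 94.8% of cytosolic HSP90 TPM in replicate 1 and 96.8% in replicate 2, and the alpha gene 5.19% and 3.18%.

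Reads of the HSP90 genes could hardly be exchanged between them, since they shared 3 words at 76.3% coding identity. Only 48.6% of Hsp90aa1 words were unique, and the gene sharing most words with it was the pseudogene Gm12346, which received 29 counts in replicate 1 and 19 in replicate 2. For Hsp90ab1 86.8% of words were unique, and the pseudogenes that share the rest held 34 counts in replicate 1 and 30 in replicate 2.

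Hsf1 (ENSMUSG00000022556.11, chromosome 15, 76477422 to 76501913, plus strand) held 26.41 TPM in replicate 1 and 23.72 TPM in replicate 2. From 1250 and 1301 counts its ratio was 0.09 [-0.02, 0.21], an interval that includes 0, and -0.02 under total-count scaling. Its RNA level was above the median of expressed protein-coding genes; activation of HSF1, which depends on trimer formation and phosphorylation, is not measured by RNA. Of 10 other heat shock factors and regulators of HSF1, 7 were abundant enough to compare. Among these 0 were past 1.5-fold in either direction, against 3.40% of all genes compared, and their median ratio was -0.11. At that share a list of this size would hold few such genes or none. Farthest from 0 were -0.40 for the deacetylase gene Sirt1 and -0.34 for Eef1a1. Hsbp1, an HSF1-binding protein, had -0.11 and the coactivator gene Ep300 0.18.

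Most other heat-inducible genes leaned the same way as the members. This list holds 18 genes besides the members, and 17 were compared: 5 were past 1.5-fold, all higher in replicate 1, against 1.72% of all genes compared. The gene left out for its low counts, Hspbap1, went the other way. It had 61 counts in replicate 1 and 125 in replicate 2, a ratio of -0.87 [-1.35, -0.43]. The median of the 17 was 0.20, and 14 of 17 lay above 0, against 50.1% of all genes compared. Dnajb1, the J-domain protein HSP40 that works with inducible HSP70, held 3.25 TPM in replicate 1 and 1.5 TPM in replicate 2, a ratio of 1.07 [0.76, 1.41]. Dnaja1 had 0.74 and Dnajb4 0.72, both J-domain partners of HSP70. Serpinh1, the collagen chaperone HSP47 of the endoplasmic reticulum, had 0.67, and Hspa4l, an HSP110-type relative, 0.64. Among abundant genes of the list, the small heat shock protein genes Cryab and Hspb8 had 0.23 and -0.01. Under total-count scaling, which shifts all genes by -0.11, 3 genes of the list were past 1.5-fold. Some of the ratios counted above 0 are smaller than this shift. In RefSeq promoter windows, 9 of 16 genes of the list with a window, Hspbap1 included, held a heat shock element match, and 2 of the 5 past 1.5-fold did. Over all RefSeq windows 15.1% held a match. That share is per window, while a listed gene was counted if any of its windows matched, so the measures are unlike.

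Cytosolic J-domain proteins included 3 of these genes past 1.5-fold (Dnajb1, Dnaja1 and Dnajb4) among 13 compared, all higher in replicate 1. Over all genes compared 1.72% were that much higher in replicate 1. The median of the 13 was 0.07. The abundant members Dnajb5 and Dnaja2 had -0.03 each. Among 8 other HSP70 and HSP110 family genes 1 was past 1.5-fold, again Hspa4l, against 3.40% of all genes compared in either direction. The median of the 8 was 0.16. Hspa9, the mitochondrial HSP70, held 129.03 TPM in replicate 1 and 119.79 TPM in replicate 2 with a ratio of 0.08. Hspa5, the endoplasmic reticulum HSP70 known as BiP, had 73.9 TPM in replicate 1 and 54.47 TPM in replicate 2, and a ratio of 0.36 [0.29, 0.42].

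The HSP90 co-chaperones, HSP70 co-factors, chaperonins and small heat shock proteins had no gene past 1.5-fold. Over all genes compared the share was 3.40%, at which lists of these sizes would hold few such genes or none. Of 21 HSP90 co-chaperones 0 were past 1.5-fold, with a median of -0.02; Unc45b, the myosin chaperone, held 90.67 TPM in replicate 1 and 89.15 TPM in replicate 2, a ratio of 0.01. The extremes were Ahsa2 at 0.27 and Fkbp5, a steroid receptor co-chaperone, at -0.21. Of 10 HSP70 co-factors 0 were past it, with a median of 0.06 and Bag3, which is itself heat-inducible, at 0.12. The 10 chaperonin genes had a median of 0.03, with 0 past 1.5-fold. Small heat shock proteins, abundant in muscle, had a median of 0.09 over 7 genes and 0 past 1.5-fold. Cryab held 513.26 TPM in replicate 1 and 420.42 TPM in replicate 2, and Hspb6 421.69 and 338.68 TPM, with ratios of 0.23 and 0.30. The organelle HSP90 genes Hsp90b1 and Trap1 had 0.20 and -0.17.

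Other gene groups also differed between the muscles. The counts below stand against 1.72% of all genes compared past 1.5-fold and higher in replicate 1, and 1.67% lower. All 6 slow fibre markers were higher in replicate 1, with 4 of 6 past 1.5-fold, a median of 0.63 and a range from 0.51 (Myl2) to 0.77 (Tnni1). Their summed level was 1358 TPM in replicate 1 and 890.2 TPM in replicate 2, and none was at 0. Of 25 immediate early genes, which respond within minutes to activity or handling, 15 were compared and 5 were past 1.5-fold, all higher in replicate 1. These were Nr4a3 at 3.42, Atf3 at 1.89, Klf4 at 1.21, Csrnp1 at 1.01 and Klf2 at 0.90, while Jun had -0.49 and Nr4a1 -0.31. Over the list the summed level was 173 TPM in replicate 1 and 159 TPM in replicate 2. The 5 general and fast muscle fibre markers had a median of -0.16, with 0 past 1.5-fold. Endothelial markers had -0.26 over 4 genes, fibroblast markers -0.12 over 3 and macrophage markers -0.06 over 2, with none past 1.5-fold. The part of the slow fibre and immediate early gene differences in the chaperone differences was not tested.

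**Figure D4:**
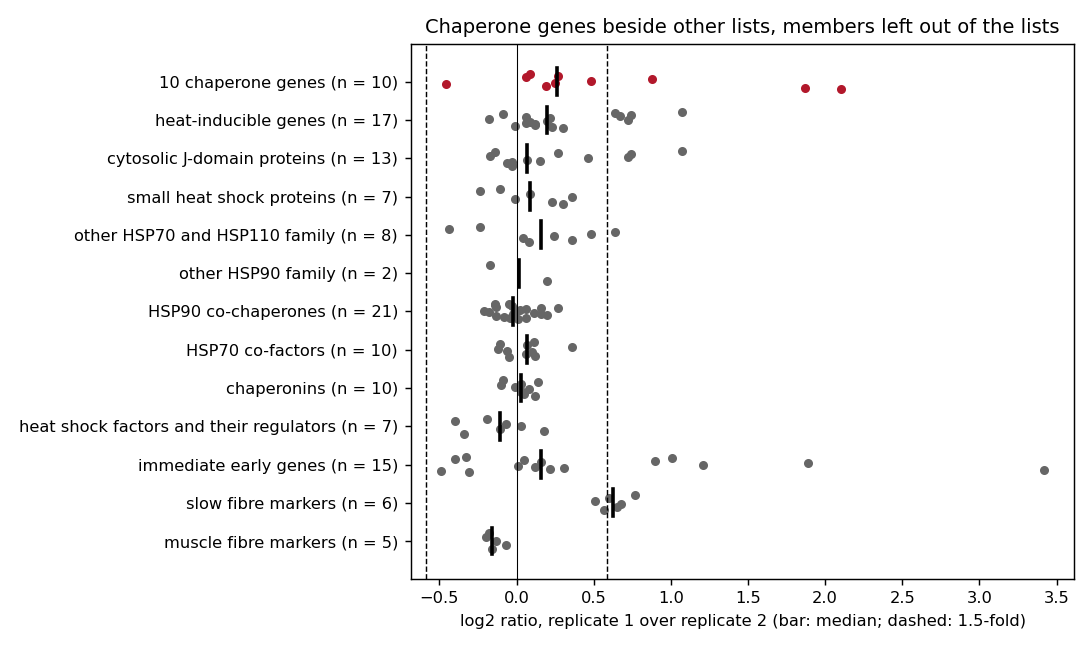
Log2 ratio of replicate 1 over replicate 2 (horizontal) for the 10 chaperone genes (red) and for genes of the other lists (grey), with members left out of the lists; n is the number of genes averaging at least 100 counts. Vertical bars are medians and dashed lines 1.5-fold; the heat-inducible, J-domain, immediate early and slow fibre lists hold genes past the upper line, as does the list of other HSP70 and HSP110 genes.

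At the transcript level, Hspa8 RNA was divided among several annotated forms. Hspa8-202 held 40.63% of Hspa8 TPM in replicate 1 and 38.57% in replicate 2, and Hspa8-201 35.37% and 42.73%. Both are protein-coding transcripts of 9 exons, and which one led differed between the animals. The short noncoding form Hspa8-203 held 16.7% in replicate 1 and 16.28% in replicate 2. Hspa8-204, a retained-intron form of 456 bases, held 38.06 TPM in replicate 1 and 8.15 TPM in replicate 2. In the second quantification, made from the reads and an index, this form had 133 TPM in replicate 1 and 7.38 TPM in replicate 2. That quantification put 24.9% of Hspa8 TPM on Hspa8-205, a short protein-coding form listed at 0 in the first. Counted over protein-coding transcripts alone, the Hspa8 ratio was 0.45 in the first and 0.46 in the second quantification, close to the 0.48 over all forms.

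Most other members had 1 leading transcript in the first quantification, with a share that was lower in the second. Hsp90ab1-201 held 80.4% ± 0.445 in the first and 56.5% ± 1.20 in the second. The rest of Hsp90ab1 was assigned mainly to Hsp90ab1-206, a form annotated as a target of nonsense-mediated decay, at 19.1% in the first quantification, and to the short Hsp90ab1-202 at 41.4% in the second. For Hsp90aa1 the full-length Hsp90aa1-201 led with 61.4% ± 5.50 in the first and 43.5% ± 3.89 in the second. Hspa4-201 held 92.3% ± 5.78 in the first and 65.1% ± 6.99 in the second, where the retained-intron form Hspa4-202 took 33.7%. Hsf1-205 moved least between quantifications, at 81.0% ± 2.57 in the first and 78.0% ± 0.738 in the second. For Hsph1 the shares were more even, where Hsph1-211 held 36.8% ± 0.608 in the first quantification, and the second gave 21.5% ± 2.85 to the retained-intron form Hsph1-208, 20.9% ± 0.271 to Hsph1-209 and 20.4% ± 4.53 to Hsph1-201, which were not separated beyond their spread. Hspa2 was placed wholly on Hspa2-202 in the first and 75.4% on Hspa2-201 in the second, while Hspa1a, Hspa1b and Hspa1l have 1 annotated transcript each. In the first quantification some short forms had close counts in the 2 animals and others did not. Hsp90ab1-206 had 1678 counts in replicate 1 and 1682 in replicate 2, and Hspa4-202 had 11.4 and 43.5. Shares set by short forms often differed between the quantifications and are uncertain in both.

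**Figure D5:**
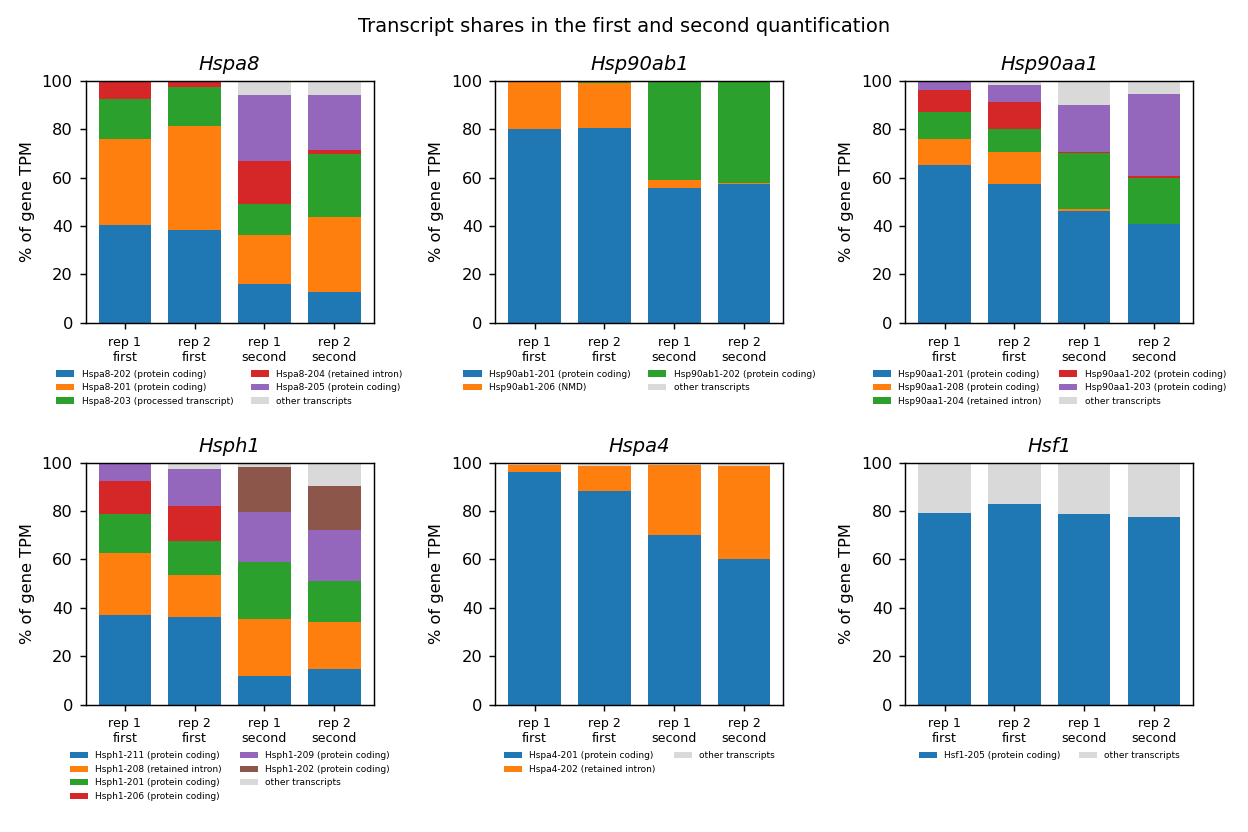
Share of each gene's TPM held by its transcripts (vertical, percent) in replicate 1 and replicate 2, from the first and the second quantification, for 6 members. Hsp90ab1-201 takes 80.4% in the first and 56.5% in the second, and Hspa8-204 is larger in replicate 1 in both.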

How the data were processed

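Expected counts (unnormalized read estimates for genes and transcripts), TPM and the percent of each gene's TPM per transcript were deposited by the authors, per the file headers. The deposited README names mm10 and GENCODE M21. It gives transcriptome alignments as the input of the gene table and of one transcript table, and reads with an index as the input of another, called the second quantification here. Tool versions and strand setting are not given in the sources used here. Per the labels, libraries were directional, ribosome-depleted and started from 300 ng. Expected counts were rounded and scaled by edgeR 4.0.16 (TMM, R 4.3.3), with a prior of 1 count and exact conditional binomial (Clopper-Pearson) intervals. A chi-square per degree of freedom of 138 showed that the libraries were not 1 library deposited again. Of each list, the text could name up to 3 genes by TPM, up to 2 by ratio, every gene past 1.5-fold, and transcripts of 10% or more. Pseudogenes, overlapping genes on the opposite strand and germ cell genes were named for shared sequence or as checks, after their values were seen. Hspbap1, under the minimum mean count, was also named after its value was seen. Members and lists were chosen with earlier results of these data known. The steps were tested on simulated counts with counting error only, without variation between animals or reads shared between genes. Past 1.5-fold were 58.0% of genes simulated at 1.5-fold, 100.0% of those at 2-fold and 0.0107% of unchanged genes. The simulation cannot bear on how reads split between Hspa1a and Hspa1b. Alternatives used DESeq2 1.42.0, total counts, ERCC spike-ins, other priors and minimums, TPM with 0.1 added and the second quantification. Other steps used Python 3.11.15, pandas 2.3.3, scipy 1.17.1, Biopython 1.88 (coding sequence alignment) and matplotlib 3.10.9. Whether the labels' animals are separate mice under 1 donor identifier could not be checked.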

Additional observations from a re-analysis of the deposited data

How the results depend on the processing

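Hspa1a, Hspa1b and Hsp90aa1 were past 1.5-fold under all 7 other scalings, priors, units and quantifications tried, with ranges of 1.99 to 2.25, 1.76 to 2.02 and 0.77 to 1.03. Hspa8 ranged from 0.36 to 0.63 and passed under 2, the spike-ins and TPM. Hsp90ab1 and Hsf1 were -0.06 and -0.02 under total counts. Relative to TMM, total counts shifted all genes by -0.11 and spike-ins by 0.15. The members' median of 0.26 was 0.25 with DESeq2 size factors, 0.14 with total counts, 0.41 with spike-ins, 0.24 in the second quantification and 0.25 at a minimum of 500 counts. At that minimum 1 member was past 1.5-fold, since Hspa1a and Hspa1b fall under it. Over all genes the number past it, 323 as reported, was 1711 at a minimum of 10 counts, 93 at 500 and 503 in TPM. Of the heat-inducible genes 3 passed under total counts. The summed level of 1141 TPM became 2629 TPM over nuclear protein-coding genes and 1337 TPM in the second quantification, and the Hspa8 share of 95.9% became 97.3% there and 94.1% in expected counts. Left out in turn, the animals gave 1010 to 1272 TPM and 95.6% to 96.1%, which are the values of the other animal and say nothing about stability. The TPM counts of genes, the heat-inducible counts and the protein-coding transcripts were added after seeing the data. Of 141 other recomputed values 42 moved beyond the spread or interval, or past 1.5 times a count, and 99 did not. No paired analysis was possible because there is 1 group. The depth limits Hspa2 most, at 112 and 172 counts.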
